A study of Mus musculus with 9 samples.

Results

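Zinc handling in mouse liver was followed through 9 genes: the metallothioneins Mt1 and Mt2, the zinc sensor Mtf1, the exporters Slc30a1 and Slc30a10, and the importers Slc39a1, Slc39a4, Slc39a8 and Slc39a14. They were chosen by symbol from the 34745 genes of the deposited count table. All 9 were found once each, and all 9 passed the filter on low counts. Messenger RNA was sequenced from livers in 3 groups of 3 libraries: WZB given before D-gal/LPS, D-gal/LPS alone, and control. The animals of every group were male C57BL/6 mice of 6 to 8 weeks. D-gal/LPS, usually D-galactosamine with lipopolysaccharide, is a model of acute liver injury. WZB is named without expansion, and the design text is about pretreatment with inhibitors of the glucose transporter GLUT1. Doses, time points and the treatment of control mice were not given in the sources used here.

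Metallothioneins are small cysteine-rich proteins that bind zinc and copper and buffer the cell's free zinc. When cytosolic zinc rises, the transcription factor MTF-1 binds metal response elements and switches on the metallothionein genes and the exporter gene Slc30a1. Exporters of the SLC30 family move zinc out of the cytosol, and importers of the SLC39 family bring it in. In mouse liver, inflammation is known to bring zinc into hepatocytes through the importer ZIP14, the product of Slc39a14, with interleukin-6 and glucocorticoids acting on metallothionein and transporter genes.

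After D-gal/LPS, both metallothionein genes, the exporter gene Slc30a1 and the importer gene Slc39a14 were lower than in control livers, and the importer genes Slc39a8 and Slc39a4 were higher. Mt1 was 6.37-fold lower, Slc30a1 was 2.20-fold lower and Slc39a14 was 1.91-fold lower, while Slc39a8 was 1.89-fold higher. With WZB before D-gal/LPS, Mt1, Mt2 and Slc30a1 were also below control. Mtf1 was lower than after D-gal/LPS alone, and Slc39a8 was higher, a call that depended on the scaling and on single libraries. The ratio of Mt2 to Mt1 counts did not overlap between the 3 groups: Mt1 counts exceeded Mt2 counts in every control library, and Mt2 counts exceeded Mt1 counts in every injured library.

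Mt1 and Mt2 are neighbours on chromosome 8. Mt2 lies at chr8:94172618-94173567 and Mt1 at chr8:94179089-94180325 (GRCm38), both on the plus strand and 5521 bases apart. The promoter windows below, from RefSeq on GRCm38.p6, run from 250 bases before to 50 bases after the RefSeq start. They are shown because Mt1, Mt2 and Slc30a1 are classic MTF-1 targets and all were lower after D-gal/LPS. The window of Slc30a10, which was also called lower, is not printed. The part of MTF-1 in the levels of these genes was not tested. Capitals mark the core of the metal response element, TGCACNC or TGCGCNC, searched on both strands, with overlapping matches counted as 1 site.
Mt1, chr8:94178839-94179138, plus strand: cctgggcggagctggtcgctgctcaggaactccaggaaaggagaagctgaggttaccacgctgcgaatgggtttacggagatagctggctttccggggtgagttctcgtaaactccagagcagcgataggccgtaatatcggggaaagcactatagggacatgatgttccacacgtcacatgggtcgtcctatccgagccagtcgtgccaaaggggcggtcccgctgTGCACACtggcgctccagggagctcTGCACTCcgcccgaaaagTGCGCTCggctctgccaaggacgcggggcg
Mt2, chr8:94172368-94172667, plus strand: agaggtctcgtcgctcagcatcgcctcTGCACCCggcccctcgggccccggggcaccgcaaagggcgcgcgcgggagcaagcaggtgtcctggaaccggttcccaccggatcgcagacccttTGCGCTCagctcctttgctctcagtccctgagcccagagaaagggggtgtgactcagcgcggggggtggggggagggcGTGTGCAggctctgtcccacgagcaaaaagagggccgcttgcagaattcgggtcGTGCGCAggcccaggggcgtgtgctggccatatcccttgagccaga
Slc30a1, chr1:191906531-191906830, plus strand: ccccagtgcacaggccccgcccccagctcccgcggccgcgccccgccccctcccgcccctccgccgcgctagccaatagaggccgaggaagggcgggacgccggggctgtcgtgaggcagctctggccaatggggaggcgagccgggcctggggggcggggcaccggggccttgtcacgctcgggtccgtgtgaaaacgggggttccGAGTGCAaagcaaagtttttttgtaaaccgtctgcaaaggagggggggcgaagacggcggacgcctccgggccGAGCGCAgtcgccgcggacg

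The metal response core stood at 3 sites in the Mt1 window, 4 in the Mt2 window, 2 in the Slc30a1 window and 2 in the Slc30a10 window. Of 32841 promoter windows of the same length, 25.7% held at least 1 such site, 6.14% at least 2, 1.31% at least 3 and 0.295% at least 4. Mtf1 and Slc39a1 had no site in their windows, and Slc39a8, which has 2 windows in the table, had 1 site in the second. The 3 sites of Mt1 began at positions -23, 3 and 21 from the RefSeq start. GENCODE M21 also lists Mt1 transcripts that start 122 and 152 bases after the RefSeq start, beyond the end of this window. The Mt2 transcripts in GENCODE M21 start 46 and 242 bases after the RefSeq start, the first near the end of the window and the second beyond it. The site counts thus describe only the windows at the RefSeq starts, and the stretches before these later starts were not searched in full. An antioxidant response core, TGACNNNGC, stood once in the windows of Mt2, Slc30a1, Slc39a1 and the first of Slc39a8, against 12.4% of all windows with at least 1. The STAT motif TTCNNNGAA stood in none of the 8 windows searched, against 8.30% of all windows. A match is a description of letters, and no match says only that these letters are not in the window. Windows were found for 7 of the 9 genes. The other 2 were Slc39a4 and Slc39a14. Slc30a1 (chr1:191906767-191913247) and Slc30a10 (chr1:185454848-185468762) share chromosome 1, and Slc39a1 (chr3:90248172-90253612) and Slc39a8 (chr3:135825279-135888572) share chromosome 3, all on the plus strand. Mtf1 lies at chr4:124802104-124849800 on the plus strand, and Slc39a4 (chr15:76612385-76616852) and Slc39a14 (chr14:70303469-70351425) lie on the minus strand (GRCm38).

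**Figure D1:**
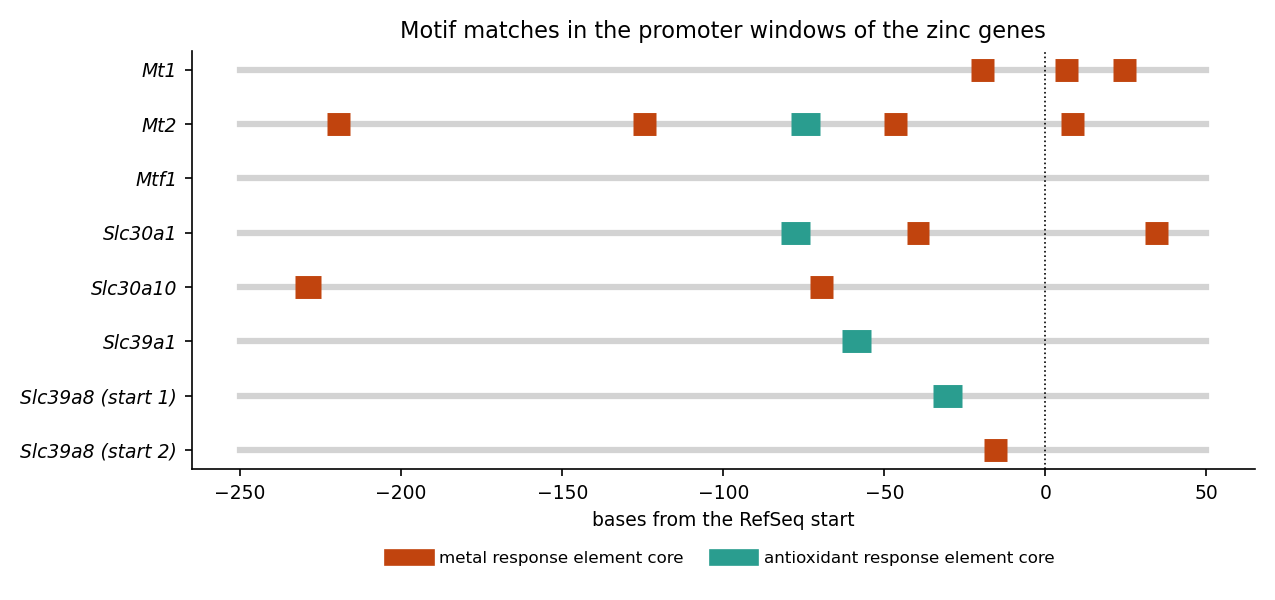
Positions of motif matches (coloured blocks) along the promoter window of each gene, in bases from the RefSeq start, with the dotted line at the start. The Mt2 window carries 4 metal response cores spread over its length, and the 3 of Mt1 lie around the RefSeq start. Some GENCODE M21 transcripts of both genes start beyond the end of the window.

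The libraries held 15072509 to 18106895 counts. Levels below are CPM, a count divided by the TMM-scaled library size, unless FPKM, the authors' value per gene length and depth, is named. Genes were tested in 1 edgeR quasi-likelihood fit of all 9 libraries, and a change passed at a Benjamini-Hochberg adjusted p under 0.05 over 13583 tested genes. The value after ± on a log2 fold change is an approximate standard error. Each change of the 9 genes was recomputed under 19 alternatives, which changed the scaling, the filter, the test or the unit, blocked on the replicate number, or left out a library. Summed hepatocyte markers (8 of 8 measured, albumin among them) reached 132264 to 142846 CPM with WZB, 104133 to 107689 CPM after D-gal/LPS and 87550 to 89926 CPM in control livers. Albumin carried much of that sum, and the other 7 markers summed to 41221 to 43942 CPM with WZB, 33133 to 34836 CPM after D-gal/LPS and 36069 to 37722 CPM in controls. After D-gal/LPS, 3 of the 8 hepatocyte markers rose and 2 fell relative to control, where 29.1% of all tested genes rose and 29.3% fell. Markers of other cells differed between the groups too. The 8 monocyte and macrophage markers summed to 173 to 207 CPM with WZB, 287 to 296 CPM after D-gal/LPS and 44.8 to 52.0 CPM in controls, and the 8 neutrophil markers to 244 to 268, 340 to 370 and 5.60 to 5.99 CPM in the same order. The 8 sinusoidal endothelial markers summed to 213 to 264 CPM with WZB, 411 to 432 CPM after D-gal/LPS and 88.4 to 106 CPM in controls, and the 8 Kupffer cell markers to 230 to 325, 473 to 525 and 125 to 134 CPM in that order. The 8 stellate cell markers summed to 756 to 854 CPM with WZB, 1292 to 1342 CPM after D-gal/LPS and 141 to 146 CPM in controls, and the 6 red blood cell markers to 423 to 713, 3585 to 4473 and 110 to 140 CPM in that order. Some markers ran against their sums. With WZB pretreatment relative to D-gal/LPS alone, 2 stellate markers rose (Lrat and Des) and 4 fell. Among sinusoidal markers 1 rose (Kdr) and 4 fell, where 13.8% of all tested genes rose and 14.7% fell. Kdr was also lower after D-gal/LPS than in controls, where the other 7 sinusoidal markers were higher, against 29.1% of all genes higher and 29.3% lower. Of the markers in these lists, Slc4a1 of red blood cells was at 0 in all control libraries. In bulk liver, fewer cells of a type and less RNA per cell cannot be told apart. Nothing in the labels says whether each library is its own animal, and p-values then measure the spread between these libraries, which may be technical.

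Mt1 had the highest level per length of the 9 transcripts in control livers. It had 326, 207 and 236 CPM in the WZB libraries, 238, 195 and 201 CPM after D-gal/LPS, and 1328, 1414 and 1291 CPM in control livers. The injured libraries, with and without WZB, all lay far below the controls and overlapped each other. The log2 fold change was -2.67 ± 0.16 for D-gal/LPS against control (edgeR adjusted p = 9.51e-08) and -2.39 ± 0.16 for WZB with D-gal/LPS against control (edgeR adjusted p = 2.67e-07). Between WZB pretreatment and D-gal/LPS alone it was 0.28 ± 0.15, which did not pass (edgeR adjusted p = 0.193). Without WZB replicate 2 that difference was 0.41 and passed (edgeR adjusted p = 0.0466), while in the other 18 of the 19 alternatives it did not pass. It was 0.0844 with total-count scaling (adjusted p = 0.759) and 0.0592 on the log2(FPKM + 0.1) scale (adjusted p = 0.827).

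Mt2, which encodes the second liver metallothionein, had smaller fold changes against control than Mt1. Its libraries held 376, 235 and 265 CPM with WZB, 378, 309 and 371 CPM after D-gal/LPS, and 543, 769 and 584 CPM in control livers. Every injured library lay below every control, and the WZB and D-gal/LPS libraries overlapped. Mt2 fell by 0.84 ± 0.20 log2 units after D-gal/LPS (edgeR adjusted p = 0.00544) and by 1.11 ± 0.20 with WZB before D-gal/LPS (edgeR adjusted p = 0.00114), both relative to control. The difference between WZB pretreatment and D-gal/LPS alone was -0.27 ± 0.19 (edgeR adjusted p = 0.345), and without WZB replicate 1, the library with the highest Mt1 and Mt2 of its group, it was -0.49 and passed (edgeR adjusted p = 0.0362). GENCODE M21 places exons of Gm45774 on the opposite strand over 73.5% of the Mt2 exon bases. Library strandedness was not given in the sources used here, and reads of the pair could not be told apart.

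Within each library the ratio of Mt2 to Mt1 counts does not depend on how libraries are scaled. It was 1.15, 1.14 and 1.12 with WZB, 1.59, 1.58 and 1.85 after D-gal/LPS, and 0.408, 0.544 and 0.453 in control livers. No library of one group fell in the range of another. The mean log2 ratio was 0.19 ± 0.02 with WZB, 0.74 ± 0.13 after D-gal/LPS and -1.10 ± 0.21 in controls (SD, n = 3 each). The difference in mean log2 ratio was 1.84 for D-gal/LPS against control, -0.55 for WZB pretreatment against D-gal/LPS alone and 1.29 for WZB with D-gal/LPS against control. Each had an exact two-sided permutation p = 0.1, the smallest that 3 libraries against 3 can give, so no pair could pass a threshold of 0.05. Per length the order was the same: Mt2 stood at 656 ± 86.5 FPKM and Mt1 at 404 ± 52.3 FPKM after D-gal/LPS, against 1224 ± 260 FPKM and 2676 ± 181 FPKM in controls. No stretch of 25 bases was shared between the GENCODE M21 transcripts of Mt1 and Mt2. Transcripts of other genes held 13 of the 579 such stretches of Mt2 and 3 of the 1267 of Mt1. Any reads of Gm45774, opposite Mt2, could not be told apart from Mt2 reads in this ratio.

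Both metallothioneins together took 0.0496 ± 0.0136% of all counts with WZB, 0.0583 ± 0.00721% after D-gal/LPS and 0.213 ± 0.0238% in controls (SD, n = 3 each). The share was lower in D-gal/LPS than in control livers without overlap, and lower with WZB than in controls without overlap (exact permutation p = 0.1 each). The shares with WZB and after D-gal/LPS overlapped (exact permutation p = 0.4). The other metallothionein genes were almost silent: Mt3 had 1 count in all 9 libraries, and Mt4 had 0, which allows a level of up to 0.0207 CPM over the pooled libraries.

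**Figure D2:**
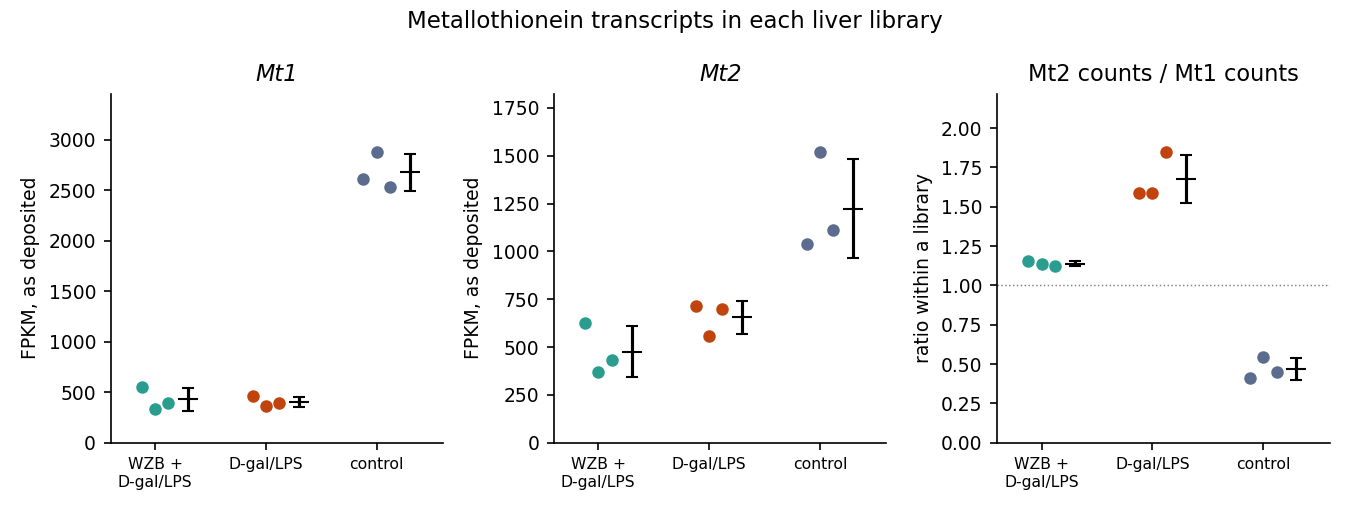
Mt1 and Mt2 in FPKM, and the ratio of Mt2 to Mt1 counts, for each library (points) with the group mean and SD (bar and whiskers, n = 3). The ratio lies below 1 in control livers, above 1.5 after D-gal/LPS and between 1.12 and 1.15 with WZB.

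Mtf1, the zinc-sensing factor, was the scarcest of the 9 transcripts per length in every group (0.340 ± 0.0707 FPKM with WZB, 0.620 ± 0.0344 FPKM after D-gal/LPS and 0.848 ± 0.0443 FPKM in controls). It had 4.53, 5.50 and 6.88 CPM with WZB, 9.07, 8.63 and 9.15 CPM after D-gal/LPS, and 12.6, 11.3 and 11.5 CPM in control livers. The 3 groups did not overlap. Mtf1 fell by 0.66 ± 0.17 log2 units with WZB pretreatment relative to injury alone (edgeR adjusted p = 0.0103) and by 1.06 ± 0.17 relative to control (edgeR adjusted p = 0.000109), calls that held in all 19 alternatives. For D-gal/LPS against control the change was -0.40 ± 0.16, at the edge of the threshold (edgeR adjusted p = 0.0496). That call ended in 13 of 19 alternatives, among them 7 of the 9 fits without 1 library, where the edgeR adjusted p was 0.0538 without WZB replicate 2, 0.0968, 0.143 and 0.0956 without D-gal/LPS replicates 1, 2 and 3, and 0.128, 0.0610 and 0.0758 without control replicates 1, 2 and 3. Exons of 1110065P20Rik on the opposite strand cover 8.09% of the Mtf1 exon bases, and that gene had 38 to 106 counts a library beside 64 to 220 of Mtf1.

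Slc30a1, which encodes the plasma membrane exporter ZnT1, had 10.3, 7.84 and 9.09 CPM with WZB, 14.2, 10.3 and 9.50 CPM after D-gal/LPS, and 24.8, 27.2 and 22.8 CPM in control livers. All injured libraries lay below all controls. Slc30a1 fell by 1.13 ± 0.16 log2 units after D-gal/LPS (edgeR adjusted p = 4.89e-05) and by 1.46 ± 0.17 with WZB before D-gal/LPS (edgeR adjusted p = 5.98e-06), relative to control. Between WZB pretreatment and D-gal/LPS alone the log2 fold change was -0.32 ± 0.17 (edgeR adjusted p = 0.177), which passed with total-count scaling (adjusted p = 0.0442). Exons of 1700034H15Rik lie opposite 8.92% of its exon bases, with 1 to 20 counts a library beside 104 to 451 of Slc30a1.

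Slc30a10, whose product exports manganese, had 23.7, 27.3 and 24.9 CPM with WZB, 16.1, 22.9 and 20.7 CPM after D-gal/LPS, and 24.4, 28.7 and 23.2 CPM in control livers. In CPM the D-gal/LPS libraries lay below both other groups. In FPKM they (2.90 to 3.94 FPKM) overlapped the WZB libraries (3.75 to 4.07 FPKM). The log2 fold change was -0.35 ± 0.14 for D-gal/LPS against control (edgeR adjusted p = 0.0431), a call that ended in 9 of 19 alternatives. Without 1 library the edgeR adjusted p was 0.0540 without WZB replicate 3, 0.190 and 0.0717 without D-gal/LPS replicates 1 and 3, and 0.0573 and 0.149 without control replicates 1 and 2. For WZB pretreatment against D-gal/LPS alone it was 0.35 ± 0.14 (edgeR adjusted p = 0.0815), which passed with upper quartile factors (adjusted p = 0.0373). That difference was smaller with total-count scaling (0.149, adjusted p = 0.450) and on the log2(FPKM + 0.1) scale (0.156, adjusted p = 0.436). Relative to control, Slc30a10 with WZB differed by -0.01 ± 0.14, with an interval of -0.28 to 0.27 (edgeR adjusted p = 0.973). Exons of Gm2061 lie opposite 9.13% of its exon bases, with 17 to 39 counts a library beside 279 to 475 of Slc30a10.

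Slc39a14, which encodes ZIP14, an importer of zinc, iron and manganese, had 167, 196 and 193 CPM with WZB, 168, 153 and 150 CPM after D-gal/LPS, and 328, 284 and 290 CPM in control livers. Every injured library lay below every control. Slc39a14 fell by 0.94 ± 0.09 log2 units after D-gal/LPS (edgeR adjusted p = 1.01e-06) and by 0.70 ± 0.09 with WZB before D-gal/LPS (edgeR adjusted p = 1.63e-05), relative to control. With WZB it stood 0.24 ± 0.09 above D-gal/LPS alone (edgeR adjusted p = 0.0603), and this passed without WZB replicate 1 (edgeR adjusted p = 0.0266), with upper quartile factors (adjusted p = 0.0174) and with voom (adjusted p = 0.0250). The difference nearly vanished with total-count scaling (0.0387, adjusted p = 0.759) and on the log2(FPKM + 0.1) scale (0.0391, adjusted p = 0.783).

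Slc39a8, which encodes ZIP8, an importer of zinc and manganese, rose after D-gal/LPS where Slc39a14, its closest relative in the family, fell. Its libraries held 32.5, 46.0 and 39.5 CPM with WZB, 28.7, 28.8 and 29.2 CPM after D-gal/LPS, and 15.1, 15.4 and 15.2 CPM in control livers. In CPM the groups did not overlap, and D-gal/LPS and control libraries were tight, with coefficients of variation of 0.997% and 1.13%, while the WZB libraries had 17.2%. In FPKM the WZB libraries (2.18 to 2.91 FPKM) overlapped those after D-gal/LPS (2.10 to 2.22 FPKM). Slc39a8 rose by 0.92 ± 0.12 log2 units after D-gal/LPS (edgeR adjusted p = 2.64e-05) and by 1.37 ± 0.12 with WZB before D-gal/LPS (edgeR adjusted p = 7.29e-07), relative to control. It also rose with WZB pretreatment relative to injury alone, by 0.45 ± 0.12 (edgeR adjusted p = 0.0144). That last call ended with total-count scaling (0.24, adjusted p = 0.135), on the log2(FPKM + 0.1) scale (0.22, adjusted p = 0.213), without WZB replicate 2 (0.32, edgeR adjusted p = 0.0705) and without D-gal/LPS replicate 2 (0.35, edgeR adjusted p = 0.0938). Monocyte, macrophage, Kupffer cell and sinusoidal endothelial marker sums, given above, were higher after D-gal/LPS than in controls, and lower with WZB than after D-gal/LPS alone. Their part in the level of Slc39a8 was not tested.

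Slc39a4, which encodes ZIP4, known as the intestinal zinc importer, was readily detected in these livers. It had 78.1, 86.5 and 75.8 CPM with WZB, 71.7, 73.5 and 72.4 CPM after D-gal/LPS, and 47.2, 42.8 and 56.0 CPM in control livers. Every injured library lay above every control. Slc39a4 rose by 0.58 ± 0.10 log2 units after D-gal/LPS (edgeR adjusted p = 0.000302) and by 0.72 ± 0.10 with WZB before D-gal/LPS (edgeR adjusted p = 4.39e-05), relative to control. The difference between WZB pretreatment and D-gal/LPS alone was 0.14 ± 0.10, with an interval of -0.06 to 0.34 (edgeR adjusted p = 0.326), and it was -0.06 with total-count scaling.

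Slc39a1, which encodes the plasma membrane importer ZIP1, passed in none of the 3 comparisons in the TMM-scaled edgeR fit, with DESeq2 or with voom. It also did not pass in that edgeR fit at an unadjusted p under 0.05. It had 61.0, 63.1 and 59.7 CPM with WZB, 59.4, 55.7 and 58.1 CPM after D-gal/LPS, and 67.3, 66.6 and 57.9 CPM in control livers. The log2 fold change was -0.15 ± 0.09 for D-gal/LPS against control (edgeR adjusted p = 0.167) and 0.08 ± 0.09 for WZB pretreatment against D-gal/LPS alone (edgeR adjusted p = 0.512), or -0.11 with total-count scaling. It was -0.06 ± 0.09 for WZB with D-gal/LPS against control (edgeR adjusted p = 0.562), which became -0.32 and passed with total-count scaling (adjusted p = 0.00860) and -0.31 on the log2(FPKM + 0.1) scale (adjusted p = 0.00880).

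**Figure D3:**
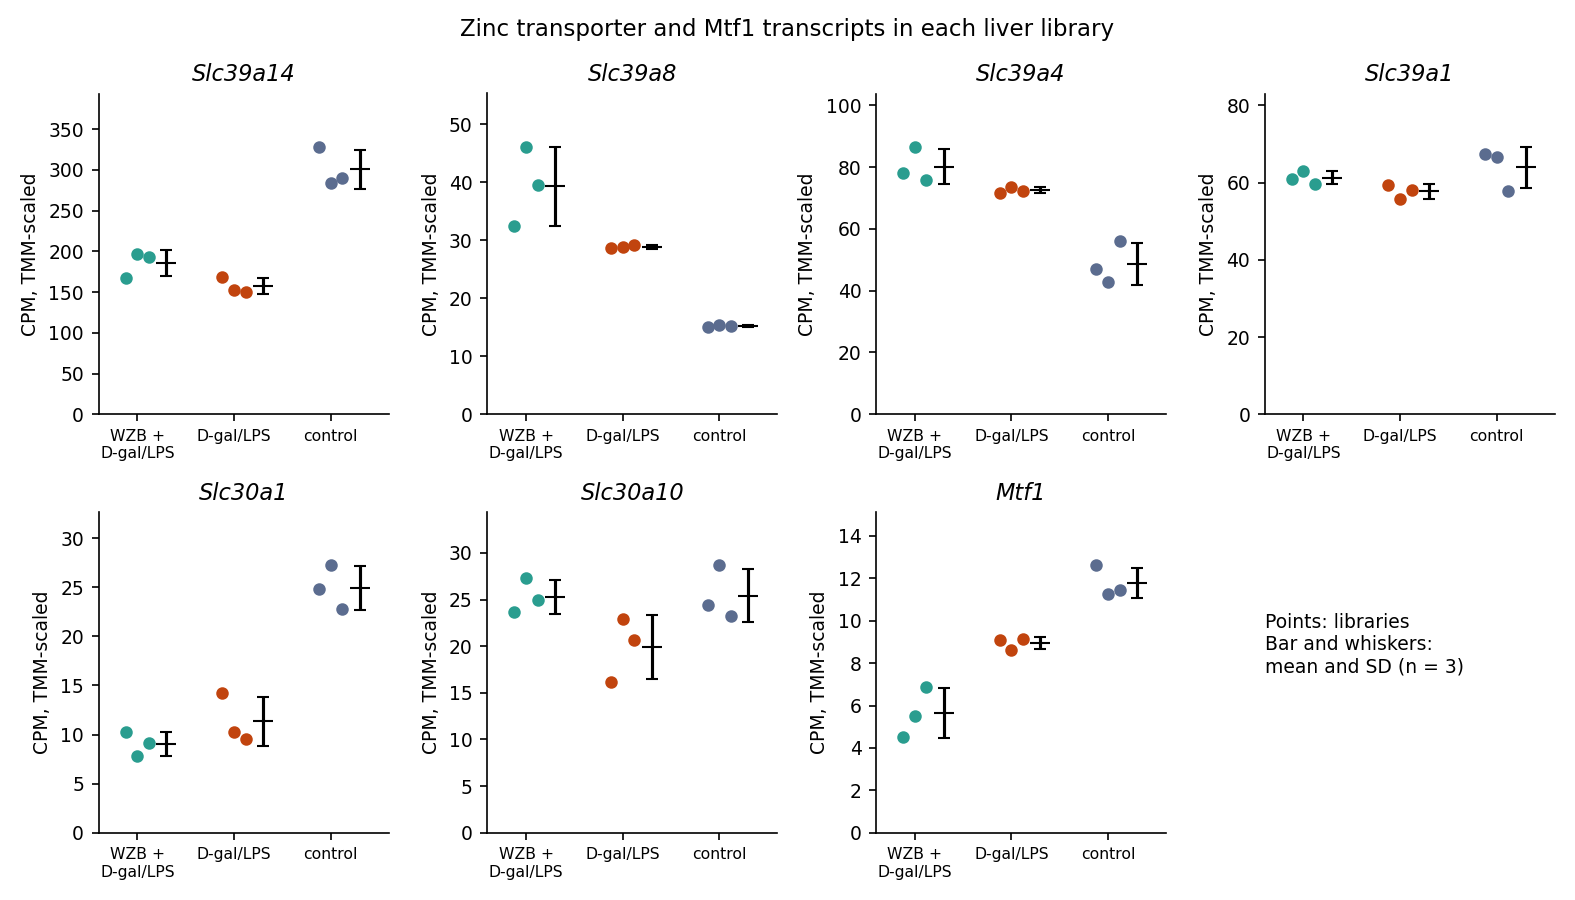
CPM after TMM scaling of the 6 transporters and Mtf1 for each library (points) with the group mean and SD (bar and whiskers, n = 3). Slc39a8 and Slc39a4 lie higher in both injured groups than in controls, while Slc39a14, Slc30a1 and Mtf1 lie lower.

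Of the 9 genes, 8 passed the test for D-gal/LPS against control, 2 higher and 6 lower, where 58.4% of the 13583 tested genes passed (29.1% higher and 29.3% lower). Their median log2 fold change was -0.40, against -0.03 over all tested genes. The libraries of these groups did not overlap for 8 of the 9, against 65.5% of all genes. For WZB pretreatment against D-gal/LPS alone, 2 of the 9 passed, Slc39a8 higher and Mtf1 lower, where 28.5% of all genes passed (13.8% higher and 14.7% lower), a share close to that of the 9. Their median was 0.14, against -0.02 over all genes, and the libraries did not overlap for 5 of the 9, against 45.3% of all genes. For WZB with D-gal/LPS against control, 7 of the 9 passed, 2 higher and 5 lower, where 60.6% of all genes passed (32.6% higher and 28% lower). The libraries of that comparison did not overlap for 7 of the 9, against 65.9% of all genes. The 3 comparisons share libraries. TMM factors were 0.872 to 0.924 in the WZB libraries, against above 1 in the other libraries, and total-count scaling moved the median of all genes by -0.20 for WZB pretreatment against D-gal/LPS alone, where 850 genes were then higher and 3290 lower, in place of 1873 higher and 2001 lower. Under it the count of the 9 for that comparison was 0 higher and 2 lower. With upper quartile factors the count was 3 higher and 1 lower, where 2358 of all tested genes were higher and 1643 lower. The signs of Slc39a1 and Slc39a4 turned with total-count scaling.

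**Figure D4:**
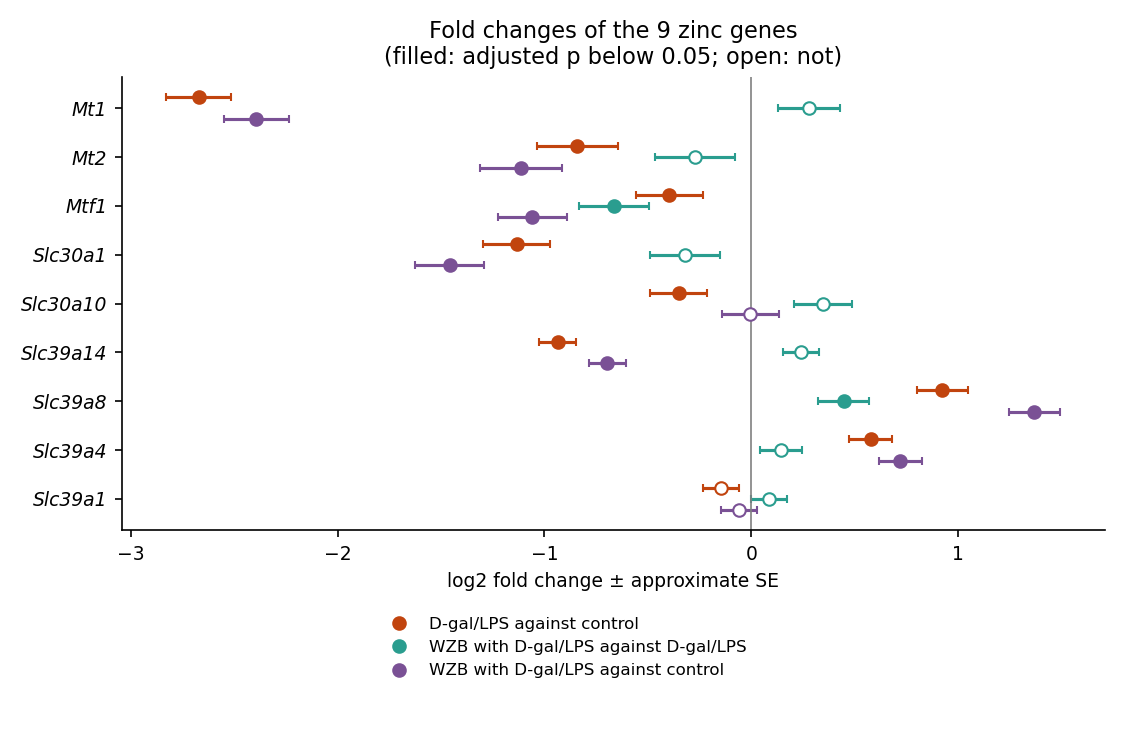
Log2 fold changes of the 9 genes with approximate standard errors in the 3 comparisons. Filled points passed at an adjusted p below 0.05, and Mt1 shows the largest change of the 9, at -2.67 for D-gal/LPS against control.

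Per length, the order of levels changed between groups. In control livers Mt1 led with 2676 ± 181 FPKM, then came Mt2 with 1224 ± 260 FPKM. Slc39a1 (29.1 ± 2.74 FPKM), Slc39a4 (23.5 ± 2.87 FPKM) and Slc39a14 (22.0 ± 1.54 FPKM) followed, each overlapping its neighbour in that order. Slc30a10 (4.69 ± 0.629 FPKM) and Slc30a1 (4.53 ± 0.493 FPKM) overlapped as well, and Slc39a8 (1.19 ± 0.0381 FPKM) and Mtf1 came last. After D-gal/LPS, Mt2 preceded Mt1, and Slc39a4 (33.7 ± 0.470 FPKM) preceded Slc39a1 (25.2 ± 1.44 FPKM) and Slc39a14 (11.1 ± 0.855 FPKM), all without overlap. Slc30a10 (3.52 ± 0.549 FPKM) came next, and Slc39a8 (2.17 ± 0.0630 FPKM) and Slc30a1 (1.98 ± 0.467 FPKM) overlapped. With WZB, Mt2 (475 ± 133 FPKM) and Mt1 (429 ± 115 FPKM) overlapped. The transporters kept the D-gal/LPS order, and Slc39a8 (2.56 ± 0.370 FPKM) lay clear of Slc30a1 (1.38 ± 0.223 FPKM).

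The genes most alike in pattern were sought by Pearson correlation of log2(CPM + 1) over the 9 libraries, which share 3 groups, as a description with no test. Mt1 was most like Maf1, a repressor of RNA polymerase III (r = 0.997), Camsap3 (r = 0.996) and Pxmp4, a peroxisomal membrane gene (r = 0.995). Mt2 was most like Fasn, the fatty acid synthase gene (r = 0.986), Fzr1 (r = 0.985) and Phrf1 (r = 0.982). Slc39a8 was most like Znrf2, a ubiquitin ligase gene (r = 0.993), and the autophagy genes Gabarap (r = 0.992) and Gabarapl2 (r = 0.991). Mtf1 was most like Kctd20 (r = 0.985), Crebbp, a histone acetyltransferase gene (r = 0.985), and Setd2, a histone methyltransferase gene (r = 0.984). For Slc30a1 they were Mis12 (r = 0.990), the fibrinogen gene Fgb (r = 0.990) and Tfg (r = 0.988), and for Slc39a4 they included Grasp (r = 0.984) and the cathepsin gene Ctsf (r = 0.981). Slc30a10 and Slc39a1 had weaker partners, led by Txnrd2 (r = 0.957) and Yeats4 (r = 0.941). Slc39a14 was most like Zfp945 (r = 0.995), Gm20457 (r = 0.994) and Acnat2 (r = 0.990). Among the 9 genes themselves, Slc30a1 tracked Mt1 (r = 0.95) and Mt2 (r = 0.94), and ran against Slc39a8 and Slc39a4 (r = -0.96 each). Other pairs were about as close, Slc39a14 with Mt1 and Slc39a4 with Slc39a8 (r = 0.94 each), and Mt1 with Mt2 had r = 0.90.

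The rest of the zinc genes numbered 21, of which 14 passed the filter. After D-gal/LPS, 3 of the 14 rose and 2 fell relative to control, where 29.1% of all tested genes rose and 29.3% fell, with a median of -0.12, against -0.03 over all genes. Slc30a5, which encodes a zinc transporter of the secretory pathway, had 19.7 ± 1.91 CPM after D-gal/LPS, against 56.8 ± 4.49 CPM in controls (log2 fold change -1.52 ± 0.11, edgeR adjusted p = 8.79e-08). Slc39a10, an importer gene of the plasma membrane, rose by 1.65 ± 0.26 log2 units to 8.37 ± 0.753 CPM, against 2.65 ± 1.04 CPM in controls (edgeR adjusted p = 0.000127). Its close relative Slc39a6 rose by 1.41 ± 0.23 (edgeR adjusted p = 0.000131). Slc39a11 rose by 0.74 ± 0.11 (edgeR adjusted p = 5.97e-05), and Slc39a2 fell by 0.71 ± 0.26 (edgeR adjusted p = 0.0288), a call lost without the filter, with DESeq2, and without D-gal/LPS replicate 2 or 3 or control replicate 3 (adjusted p up to 0.101).

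With WZB pretreatment relative to injury alone, 3 of the 14 rose and 0 fell in the edgeR test, where 13.8% of all tested genes rose and 14.7% fell, with a median of -0.21, against -0.02 over all genes. At an unadjusted p under 0.05, 1 was lower, and 1 was lower with DESeq2 and 2 with voom. With total-count scaling 1 was higher and 2 lower, where 850 of the 13583 genes were higher and 3290 lower. Slc39a11, which encodes ZIP11, rose by 0.51 ± 0.11 log2 units (edgeR adjusted p = 0.00306), with 28.8 ± 1.47 CPM with WZB, against 20.2 ± 1.48 CPM after D-gal/LPS, a call that held in all 19 alternatives. Slc39a9, of the Golgi, rose by 0.46 ± 0.11 (edgeR adjusted p = 0.00843), and Slc30a9, the gene of a mitochondrial zinc exporter, by 0.37 ± 0.08 (edgeR adjusted p = 0.00581). Both calls ended with total-count scaling (adjusted p = 0.0989 for Slc39a9 and 0.174 for Slc30a9) and on the log2(FPKM + 0.1) scale. That of Slc30a9 ended also without D-gal/LPS replicate 2. Over the 19 alternatives the adjusted p reached 0.108 for Slc39a9 and 0.251 for Slc30a9. Slc30a5 had 19.0 ± 1.61 CPM with WZB, against 19.7 ± 1.91 CPM after D-gal/LPS (log2 fold change -0.05 ± 0.11, edgeR adjusted p = 0.789).

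**Figure D5:**
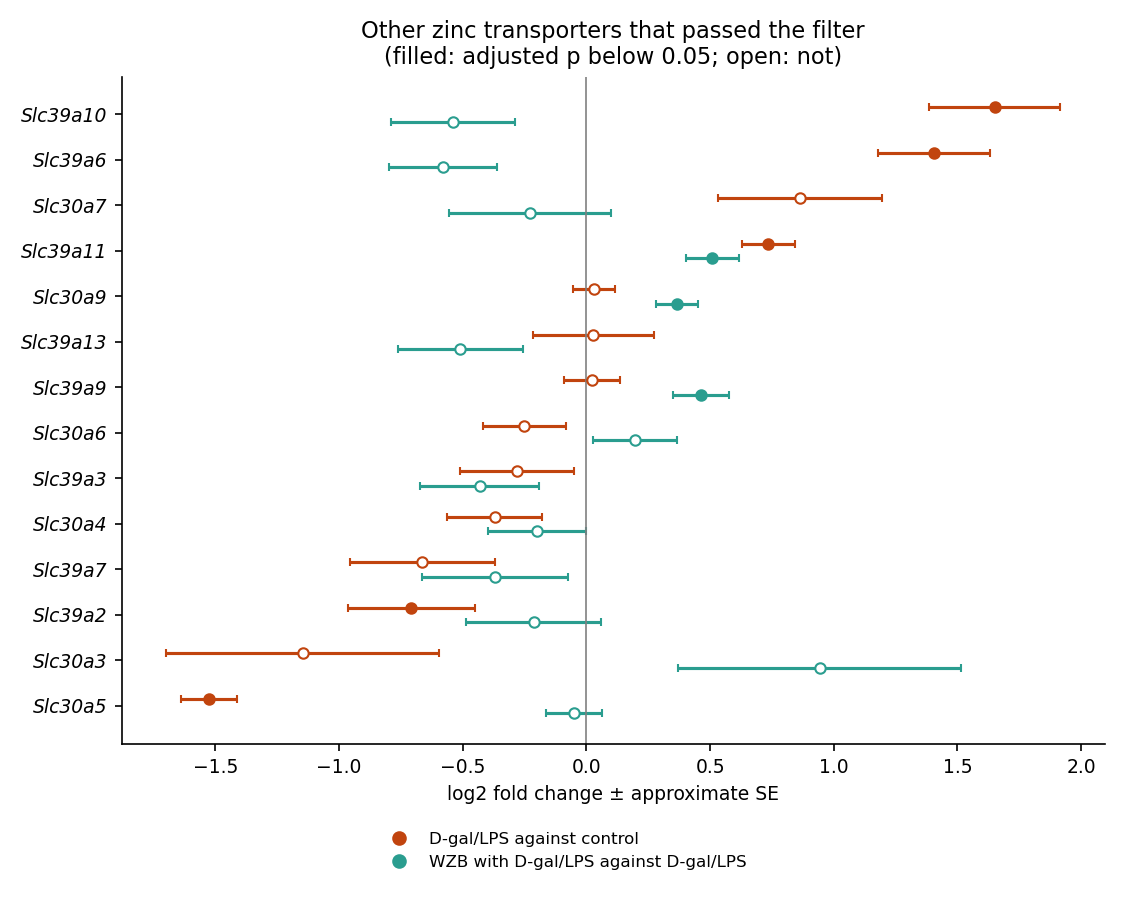
Log2 fold changes with approximate standard errors of the 14 other zinc transporter genes that passed the filter, for D-gal/LPS against control and WZB pretreatment against D-gal/LPS alone. Slc30a5 lies lowest after D-gal/LPS at -1.52 and Slc39a10 highest at 1.65.

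Genes of neighbouring metals were mixed. Of 16 copper and manganese genes, 5 rose and 4 fell after D-gal/LPS relative to control, or 7 fell with total-count scaling. Together 9 of the 16 passed, where 58.4% of all tested genes passed, a share close to theirs. With WZB pretreatment relative to injury alone 6 rose and 2 fell, where 13.8% of all genes rose and 14.7% fell. These counts became 1 and 5 with total-count scaling, which gave 850 higher and 3290 lower genes of 13583. Atp7a, the copper exporter gene of tissues other than hepatocytes, had 1.57 ± 0.652 CPM with WZB, 5.54 ± 1.09 CPM after D-gal/LPS and 1.10 ± 0.170 CPM in controls. It rose by 2.33 ± 0.31 after D-gal/LPS relative to control (edgeR adjusted p = 2.76e-05) and fell by 1.80 ± 0.31 with WZB pretreatment relative to injury alone (edgeR adjusted p = 0.000742). Sod1, the gene of the copper and zinc superoxide dismutase, had 562 ± 62.2 CPM with WZB, 382 ± 16.3 CPM after D-gal/LPS and 497 ± 19.6 CPM in controls. It fell by 0.38 ± 0.09 after D-gal/LPS (edgeR adjusted p = 0.00228) and rose by 0.56 ± 0.09 with WZB pretreatment relative to injury alone (edgeR adjusted p = 0.000488). Sod2, the gene of the manganese enzyme, rose by 0.62 ± 0.07 after D-gal/LPS relative to control (edgeR adjusted p = 8.9e-06).

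Pathways known to act on metallothionein and ZIP14 genes were read beside them. Of 16 genes of IL-6 and STAT3 signalling, 3 rose and 4 fell after D-gal/LPS relative to control, where 29.1% of all tested genes rose and 29.3% fell. Il6, the gene of interleukin-6, had 1.44 ± 0.387 CPM with WZB, 6.08 ± 1.61 CPM after D-gal/LPS and 0.195 ± 0.158 CPM in controls, and Socs3, the feedback inhibitor of STAT3 signalling, had 115 ± 8.24, 137 ± 18.2 and 37.9 ± 5.89 CPM in the same groups. Socs3 rose by 1.86 ± 0.12 after D-gal/LPS relative to control (edgeR adjusted p = 3.61e-08), while Fgb, among the 4 that fell, changed by -0.50 ± 0.09 (edgeR adjusted p = 0.000215). The part of this pathway in the levels of Mt1, Mt2 and Slc39a14 was not tested. With WZB pretreatment relative to injury alone, 7 of the 16 fell and 0 rose in the edgeR test, where 14.7% of all genes fell and 13.8% rose. None rose at an unadjusted p under 0.05, with DESeq2 or with voom, while 5 fell with voom and 11 with total-count scaling, under which 3290 of the 13583 genes fell and 850 rose. Among those that fell were Lcn2, an iron-scavenging lipocalin gene (-1.01 ± 0.12, edgeR adjusted p = 9.85e-05) and Steap4, a metalloreductase gene (-0.85 ± 0.12, edgeR adjusted p = 0.00019). Of 11 glucocorticoid genes, 2 rose and 4 fell after D-gal/LPS relative to control, where 58.4% of all genes passed, a share close to theirs, Sgk1 rising by 2.52 ± 0.13 (edgeR adjusted p = 1.61e-09) and Zbtb16 by 2.97 ± 0.15 (edgeR adjusted p = 1.83e-09). Errfi1, a feedback inhibitor of EGF receptor signalling, had 137 ± 19.0 CPM with WZB, 266 ± 21.2 CPM after D-gal/LPS and 647 ± 112 CPM in controls. It fell by 1.28 ± 0.13 after D-gal/LPS relative to control (edgeR adjusted p = 5.89e-06) and by 0.96 ± 0.13 with WZB pretreatment relative to injury alone (edgeR adjusted p = 0.000305). With WZB pretreatment relative to injury alone 2 of the 11 rose and 4 fell, or 1 and 5 with total-count scaling, where 28.5% of all genes passed, or 30.5% with total-count scaling. Nr3c1, the glucocorticoid receptor gene, had 31.3 ± 1.30 CPM with WZB, against 45.9 ± 0.459 CPM after D-gal/LPS (log2 fold change -0.55 ± 0.09, edgeR adjusted p = 0.000489). Of 10 NRF2 targets, 4 rose and 6 fell after D-gal/LPS relative to control, where 29.1% of all genes rose and 29.3% fell. With WZB pretreatment relative to injury alone 2 rose and 3 fell, where 13.8% of all genes rose and 14.7% fell. Hmox1, which degrades haem, rose by 2.20 ± 0.09 after D-gal/LPS relative to control (edgeR adjusted p = 1.94e-10) and fell by 1.04 ± 0.09 with WZB pretreatment relative to injury alone (edgeR adjusted p = 5.02e-06). Slc7a11, the gene of a cystine transporter, had 4.50 ± 0.819 CPM with WZB, 8.42 ± 1.15 CPM after D-gal/LPS and 0.0750 ± 0.0654 CPM in controls. It fell by 0.90 ± 0.24 with WZB pretreatment relative to injury alone (edgeR adjusted p = 0.0132), a call lost without WZB replicate 3 or D-gal/LPS replicate 1 (edgeR adjusted p up to 0.0620). Nqo1, which encodes a quinone reductase, moved the other way, with 6.02 ± 0.460 CPM with WZB, 2.33 ± 0.663 CPM after D-gal/LPS and 3.60 ± 0.716 CPM in controls. It rose by 1.37 ± 0.25 with WZB pretreatment relative to injury alone (edgeR adjusted p = 0.00141). Its change after D-gal/LPS relative to control was -0.64 ± 0.26 (edgeR adjusted p = 0.0488), a call lost in 13 of 19 alternatives, among them all 3 without 1 WZB library (adjusted p up to 0.193 over the 19).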

How the data were processed

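The authors deposited a table with whole-number read counts and FPKM values for each gene. The submitters' processing notes name GRCm38.p4 (mm10), limma and R 4.1.2. Read alignment, counting, annotation release and strandedness were not given in the sources used here. Of its 21 value columns, the 3 that match no label were left out. Libraries of a group differed by more than counting noise (chi-square per gene of 13.9 to 31.8), so none was taken as a repeat deposit.

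Counts were tested with edgeR 4.0.16 under R 4.3.3. filterByExpr kept 13583 of 34745 genes. TMM factors and 1 robust quasi-likelihood fit of all 9 libraries followed, with no block. P-values were Benjamini-Hochberg adjusted over the 13583 genes, and 0.05 was the threshold. A value after ± on a log2 fold change is its size divided by the square root of F, an approximate standard error. Intervals are 95% intervals from these errors. The code was tested on simulated data. Library depth of 15072509 to 18106895 counts limits low genes such as Mtf1, and counting limits cover counting error only.

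Alternatives were limma 3.58.1 (voom with sample weights, or log2 of the deposited FPKM + 0.1), DESeq2 1.42.0, other scalings, filters, fits of 2 groups, a replicate block and leaving out each library. The Mt2 to Mt1 ratio and the metallothionein share were tested by exact permutation. The 9 genes, the gene lists and the tests were chosen with earlier results of these data known. Genes named beside the 9 were the other zinc genes, from each list the 2 lowest adjusted p values in each of the first 2 comparisons, of which a part is printed, and the 3 most alike in pattern to each of the 9, of which some are not reported here.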

Additional observations from a re-analysis of the deposited data

How the results depend on the processing

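Each change of the 9 genes was recomputed under 19 alternatives. No called change of the 9 genes reversed under any of them. For D-gal/LPS against control and for WZB with D-gal/LPS against control, the counts of the 9 genes called stayed within 1.5 times of those reported. For WZB pretreatment against D-gal/LPS alone, 2 of the 9 were called, 1 higher and 1 lower, where 28.5% of all tested genes were called. With upper quartile factors 4 were called, 3 of them higher, where 2358 of all 13583 tested genes were higher and 1643 lower. With total-count scaling 0 were higher and 2 lower, where 850 of all tested genes were higher and 3290 lower. On the log2(FPKM + 0.1) scale 1 was called and 0 were higher, where 899 of 14405 genes were higher and 3082 lower. With voom 2 were higher, where 2151 of all tested genes were higher and 2330 lower. Without 1 library, 1 (without D-gal/LPS replicate 2) to 4 (without WZB replicate 1) were called, 0 to 2 higher and 1 to 2 lower. In these fits 19.5% to 29.2% of all tested genes were called. The cause was not tested. With the replicate number as a block 2 were higher, Slc30a10 being added (adjusted p = 0.0463), and Mtf1 for D-gal/LPS against control no longer passed (adjusted p = 0.0656). The libraries share only a number, and correlations between the deviations of same-numbered libraries from their group means lay between -0.0673 and 0.0417. The Mt2 to Mt1 ratio kept its direction in every comparison with FPKM and without each library, but neither check could have turned it. FPKM rescales the ratio by the same factor in every library, and the groups did not overlap. The share of counts from Mt1 and Mt2 kept its direction with the tested genes as denominator and without each library. Leaving out a library could have turned the share only for WZB pretreatment against D-gal/LPS alone, where the groups overlapped. Low counts limit Mtf1 and Slc30a1, whose libraries held as few as 64 and 104 counts.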
